A study of Oryza sativa with 36 samples.

Results

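Abscisic acid is made and broken down by small enzyme families, and 6 genes of rice (Oryza sativa) that encode such enzymes were followed across all 36 flag leaf libraries of the series. They were taken by gene identifier and not by their values. The first 3 genes encode 9-cis-epoxycarotenoid dioxygenases, which carry out synthesis: NCED3 (LOC_Os03g44380), NCED4 (LOC_Os07g05940) and NCED5 (LOC_Os12g42280). The others encode abscisic acid 8'-hydroxylases, which carry out breakdown: ABA8OX1 (LOC_Os02g47470), ABA8OX2 (LOC_Os08g36860) and ABA8OX3 (LOC_Os09g28390). They are 6 of the 34623 genes common to all deposited tables, and all 6 were among the 18585 genes tested. The deposited tables annotate the NCED genes as 9-cis-epoxycarotenoid dioxygenases and the ABA8OX genes as cytochromes P450, and give no genome positions for them.

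Abscisic acid is a plant hormone that closes stomata under water shortage, acts in leaf ageing, and reaches filling grains. An NCED enzyme cleaves an epoxidised carotenoid in the plastid, which is regarded as the committed step of synthesis. The 8'-hydroxylases are cytochrome P450 enzymes of the CYP707A family that oxidise the hormone toward phaseic acid, the main route of its inactivation. The amount of hormone depends on both families, and transcript levels alone do not give it.

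Leaves came from the super-hybrid WFYT025 and from its parents WFB and CHT025. Each was sampled on day 1 and on day 10 after flowering, from a crop grown as early rice and from one grown as middle rice, here the early season and the middle season. Each of the 12 groups had 3 libraries. No group received a treatment that the labels name, and nothing in the labels tells whether the 3 libraries of a group are 3 plants, so the tests weigh differences against a spread that may be technical.

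Levels are FPKM, fragments per kilobase of transcript scaled to the mapped fragments of the library. Changes are differences of log2(FPKM + 1) with their standard error, and a gene was called changed at an adjusted p under 0.05 (limma, Benjamini-Hochberg over all tested genes). This scale understates the change of low genes. Summed FPKM lay between 532276 and 567391 in the libraries, and the read depth is unknown. The 5 leaf markers, Rubisco small subunit, Rubisco activase and chlorophyll-binding protein genes, lay between 1853 and 26008 FPKM in every library. Of the root markers, RCc3 was listed at 0 in all 36 libraries, and the silicon transporter LSI1 lay between 4.06 and 15.1 FPKM. All 3 grain markers, 2 glutelins and granule-bound starch synthase I, were above 0 in every library. Their summed level was 142 to 202 FPKM in middle-season WFB on day 1 and 3.16 to 100 FPKM in the other 11 groups. It varied widely among libraries of one group, as from 7.27 to 95.5 FPKM in early-season WFB on day 10. In bulk leaf RNA, fewer cells of a type and less RNA per cell cannot be told apart.

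Among the synthesis genes, NCED5 had the highest FPKM in every group and NCED4 or NCED3 the lowest. NCED5 group means ran from 2.40 ± 0.34 FPKM (SD, n = 3) in early-season WFB on day 1 to 13.9 ± 0.84 in WFB on day 10 of the same season, a 5.78-fold range. WFB on day 1 of the middle season stood beside that maximum at 13.7 FPKM (14.6, 14.2 and 12.3), and the libraries of these 2 groups overlapped. From 4.50 to 5.35 FPKM, 5 groups formed a run in which each overlapped the next: CHT025 on day 10 of the early season, WFB on day 10 of the middle season, WFYT025 on day 10 of the early season, and CHT025 on day 1 of the middle and of the early season. The other 2 NCED genes were highest in a different group, CHT025 on day 1 of the middle season.

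NCED3 was low throughout, with group means from 0.23 ± 0.07 FPKM in early-season WFYT025 on day 1 to 4.95 ± 0.30 in middle-season CHT025 on day 1. That is a 21.5-fold range of mean FPKM. The next highest group, WFYT025 on day 10 of the middle season, had 3.75 ± 0.23, and neither of these 2 groups overlapped its neighbours. The 7 groups from WFB on day 10 of the early season (0.88) to CHT025 on day 10 of the middle season (1.71) overlapped one another in sequence.

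NCED4 was the least abundant member, with a median of 0.28 FPKM over the libraries. It reached 1 FPKM in 10 of 36 libraries and was listed at 0 in 5, so it passed the filter on low values only through the groups in which it was high. Its tests that include such a group describe its level there and are not independent of that filter. Its 3 libraries had 3.03, 3.26 and 4.25 FPKM in middle-season CHT025 on day 1. They had 1.62, 1.60 and 1.46 in middle-season WFYT025 on day 10, and all 3 were listed at 0 in early-season WFYT025 on day 1. The first 2 of these groups lay above every other library of the series for this gene.

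On the log2(FPKM + 1) scale ABA8OX1 had the widest range of the 6 genes. NCED4 has no fold range, its lowest group mean being 0, and for ABA8OX1 the highest mean FPKM was 95.0-fold the lowest. The lowest group was WFYT025 on day 1 of the early season, with 0.83, 0.62 and 0.91 FPKM. The highest was CHT025 on day 1 of the early season, with 68.4, 77.8 and 77.9. A further 3 groups stood high, at 58.8 ± 3.97 in middle-season WFB on day 1, 57.4 ± 4.05 in middle-season WFYT025 on day 10 and 36.9 ± 2.45 in early-season WFB on day 10. The first 2 of these overlapped, and the remaining 8 groups had means of at most 10.05 FPKM.

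ABA8OX2 was the steadiest of the 6, with a 3.12-fold range between WFYT025 on day 10 of the middle season (4.83 ± 0.35 FPKM) and CHT025 on day 1 of that season (15.04 ± 0.30). Of the 11 neighbouring pairs in its order of groups, 8 overlapped. ABA8OX3 ran from 7.06 ± 0.24 in early-season WFB on day 1 to 48.6 ± 1.66 in middle-season WFYT025 on day 1, 6.89-fold. The 3 day 1 groups of the early season held its 3 lowest places, without overlap between neighbours.

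**Figure D1:**
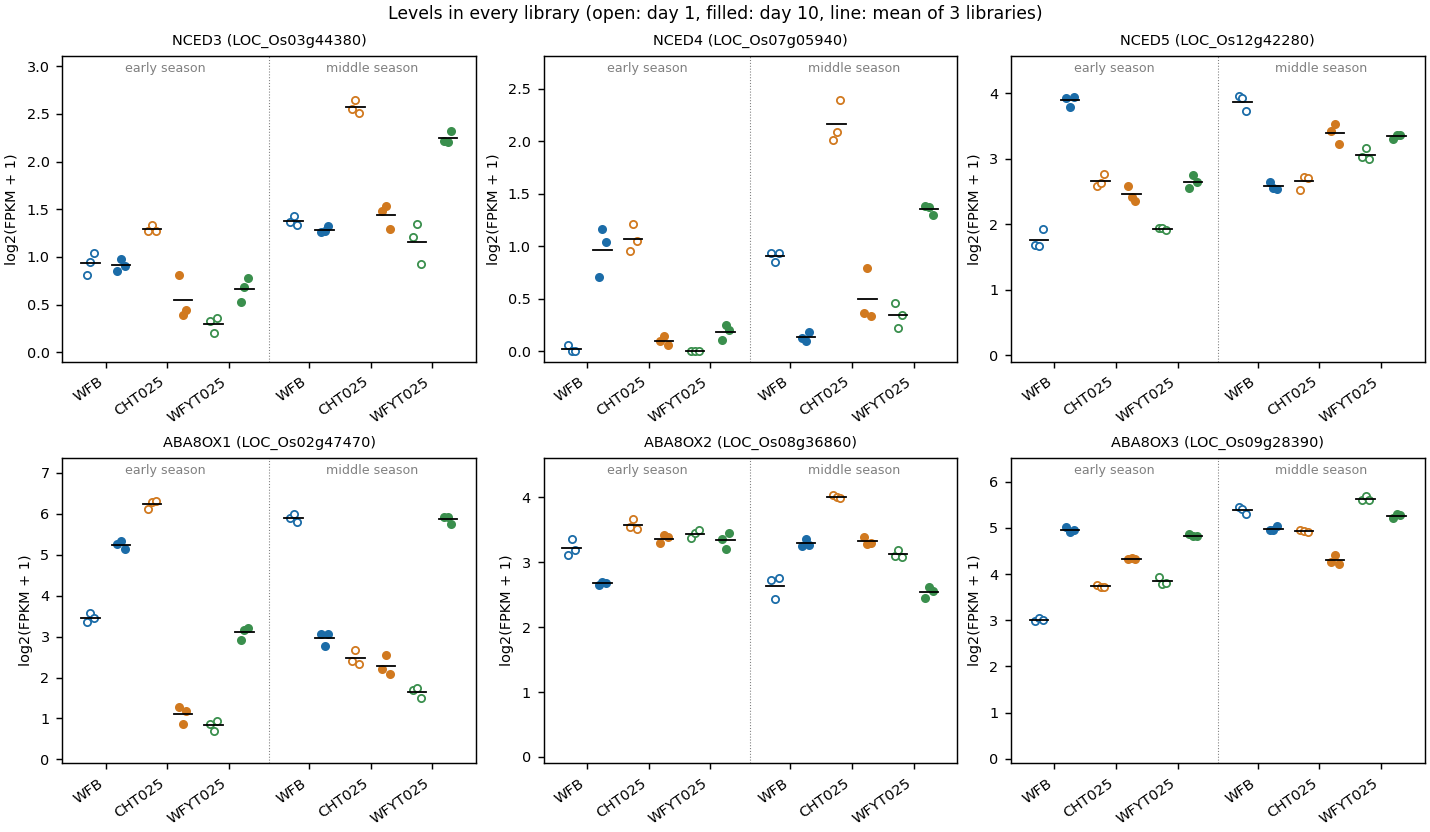
Level of each gene in every library, as log2(FPKM + 1), with open points for day 1, filled points for day 10 and a line at the mean of 3 libraries. Blue is WFB, orange CHT025 and green WFYT025, and ABA8OX1 spans the widest range, from 0.79 FPKM in WFYT025 to 74.7 in CHT025, both on day 1 of the early season.

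Between day 1 and day 10 of the early season, NCED4 and ABA8OX1 rose in WFB and fell in CHT025. In WFB, 4 of the 6 genes rose and 1 fell, while in CHT025 5 fell and 1 rose, and in WFYT025 4 rose and none fell. The CHT025 falls of NCED5 and ABA8OX2 were small and lost their calls after quantile normalization. Over all tested genes, 71.1% were called in WFB, 65% in CHT025 and 68% in WFYT025, so the number of members called there (5, 6 and 4 of 6) is near the background, and the direction and size of the changes describe them better.

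ABA8OX1 showed the largest of these changes on the log2(FPKM + 1) scale. In CHT025 it fell from 68.4, 77.8 and 77.9 FPKM on day 1 to 1.44, 0.82 and 1.26 on day 10. Every day 1 library was far above every day 10 library, and the ratio of mean FPKM was 63.7 (log2 change -5.13 ± 0.12, adjusted p = 5.1e-25). In WFB it rose from 9.22, 10.9 and 9.99 to 37.2, 39.1 and 34.3 FPKM (log2 change 1.78 ± 0.12, adjusted p = 2.91e-14). The WFB library with 34.3 FPKM had 52.3 FPKM of the glutelin LOC_Os01g55690, against 1.70 and 1.62 in the other 2 libraries of its group. In CHT025 this glutelin had 28.15, 0.68 and 0.57 FPKM on day 1, and the part of grain transcripts in these results was not tested. In WFYT025 ABA8OX1 rose from 0.83, 0.62 and 0.91 to 6.58, 8.01 and 8.31 FPKM (log2 change 2.27 ± 0.12, adjusted p = 1.14e-16).

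The synthesis genes differed among the varieties too. NCED5 rose in WFB from 2.21, 2.19 and 2.79 to 14.2, 12.9 and 14.5 FPKM (log2 change 2.13 ± 0.08, adjusted p = 5.23e-20) and in WFYT025 by 0.71 ± 0.08. In CHT025 NCED5 had a log2 change of -0.21 ± 0.08 (adjusted p = 0.0295) with libraries that met at 5.02 FPKM, and this call was lost after quantile normalization (-0.046, adjusted p = 0.655) and without replicate 3 of CHT025 on day 1 (-0.16) or replicates 2 (-0.19) or 3 (-0.16) on day 10. NCED4 went in WFB from 0.04, 0 and 0 to 0.63, 1.24 and 1.06 FPKM and was called higher. In CHT025 it fell from 0.94, 1.32 and 1.07 to 0.07, 0.11 and 0.04 (log2 change -0.97 ± 0.11, adjusted p = 3.79e-09). NCED3 fell in CHT025 from 1.46 ± 0.06 to 0.47 ± 0.24 FPKM (-0.75 ± 0.10) and rose in WFYT025 from 0.23 ± 0.07 to 0.59 ± 0.14 (0.37 ± 0.10), and its log2 change in WFB was -0.02 ± 0.10 (adjusted p = 0.847).

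ABA8OX3 rose in all 3 varieties in the early season. Its libraries went from 6.87, 7.33 and 6.98 to 31.4, 29.2 and 30.2 FPKM in WFB (log2 change 1.96 ± 0.05), and the log2 change was 0.60 ± 0.05 in CHT025 and 0.99 ± 0.05 in WFYT025. The clock gene LHY (LOC_Os08g06110), a morning MYB factor, was also higher on day 10 in these 3 comparisons: the LHY mean was 23.7 FPKM on day 1 and 385 on day 10 (WFB), 123 then 688 (CHT025), and 63.2 then 623 (WFYT025). Another clock gene, GI (LOC_Os01g08700), was lower on day 10 in the same comparisons. Its mean was 562 then 302 FPKM (WFB), 381 then 201 (CHT025), and 441 then 250 (WFYT025). The hour of sampling is not given in the sources used here, and the part of the clock in these changes was not tested. In the middle season, where ABA8OX3 fell in all 3, the LHY mean was 541 then 385 (WFB), 542 then 559 (CHT025), and 844 then 389 (WFYT025). The middle-season GI mean was 155 then 185 (WFB), 218 then 172 (CHT025), and 152 then 220 (WFYT025). In the early season ABA8OX2 fell in WFB by 0.55 ± 0.07 on the log2 scale. In CHT025 its change was -0.21 ± 0.07 (adjusted p = 0.0151), a call lost after quantile normalization (-0.062, adjusted p = 0.495) and without replicate 2 of day 1 (-0.16) or replicate 1 of day 10 (-0.17).

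In the middle season ABA8OX1 and NCED4 rose in the hybrid and fell in WFB. Of the 6 genes, 4 rose and 2 fell in the hybrid, WFB had 1 higher and 4 lower, while CHT025 had 1 gene higher and 4 lower. The background was 64.3% of all tested genes called in WFYT025, 66.6% in WFB and 43.6% in CHT025, where 5 of 6 members were called.

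ABA8OX1 rose in WFYT025 from 2.24, 2.34 and 1.83 to 59.7, 59.7 and 52.7 FPKM, a ratio of means of 26.8 (log2 change 4.22 ± 0.12, adjusted p = 3.58e-23). In WFB it fell from 59.1, 62.7 and 54.8 to 7.31, 5.77 and 7.42 FPKM (log2 change -2.94 ± 0.12, adjusted p = 3.96e-19). The groups were separate in both varieties, in opposite order. The glutelin LOC_Os01g55690 also differed between the WFB groups, with 79.9, 111 and 78.9 FPKM on day 1 against 19.6, 1.08 and 43.1 on day 10. In WFYT025 this glutelin had 0.46, 33.3 and 29.4 FPKM on day 1 and 48.4, 24.1 and 44.1 on day 10. Its part in the WFB and WFYT025 results was not tested. In CHT025 ABA8OX1 had overlapping libraries, 4.33, 5.42 and 4.03 on day 1 and 3.65, 4.88 and 3.24 on day 10 (log2 change -0.19 ± 0.12, adjusted p = 0.204). Without replicate 2 of that day 10 group it was called at -0.33.

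NCED3 and NCED4 both rose in WFYT025 and fell in CHT025. NCED3 went from 1.31, 1.54 and 0.90 to 3.64, 3.60 and 4.01 FPKM in WFYT025 (log2 change 1.09 ± 0.10, adjusted p = 5.79e-11) and from 4.87, 5.28 and 4.70 to 1.80, 1.89 and 1.45 in CHT025 (-1.14 ± 0.10, adjusted p = 6.86e-11). NCED4 changed by 1.01 ± 0.11 in WFYT025 and by -1.66 ± 0.11 in CHT025 on the log2 scale. Each of these comparisons includes a group through which NCED4 passed the filter on low values, so the values are descriptive. In WFB NCED4 fell by 0.77 ± 0.11, whereas NCED3 had a log2 change of -0.09 ± 0.10 (adjusted p = 0.437), called at -0.26 after quantile normalization.

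NCED5 followed another course, falling in WFB from 14.6, 14.2 and 12.3 to 5.25, 4.89 and 4.80 FPKM (-1.29 ± 0.08) and rising in CHT025 from 5.31 ± 0.47 to 9.53 ± 1.11 (0.74 ± 0.08). In WFYT025 its log2 change of 0.29 ± 0.08 became -0.049 (adjusted p = 0.643) after quantile normalization, which removed a median shift of 0.18 over all genes in that comparison. ABA8OX3 fell in all 3 varieties, by 0.37 ± 0.05 in WFYT025, 0.40 ± 0.05 in WFB and 0.64 ± 0.05 in CHT025 on the log2 scale. ABA8OX2 fell by 0.58 ± 0.07 in WFYT025 and 0.68 ± 0.07 in CHT025 and rose in WFB by 0.65 ± 0.07.

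**Figure D2:**
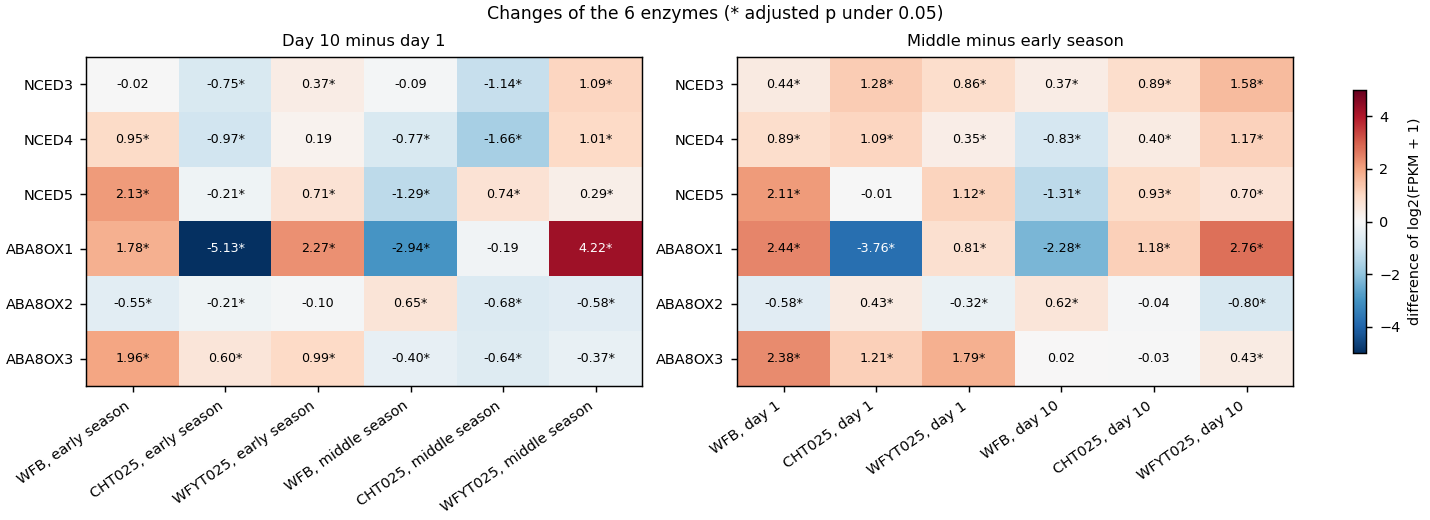
Difference of log2(FPKM + 1) for each gene, day 10 minus day 1 on the left and middle minus early season on the right, with an asterisk at an adjusted p under 0.05. Red is higher and blue is lower on day 10 or in the middle season, and ABA8OX1 holds both extremes of the day changes, -5.13 (CHT025, early season) and 4.22 (WFYT025, middle season).

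Over the 6 day comparisons together, 31 of 36 member values were called, 15 higher and 16 lower, and 12 were called with a change of at least 2-fold on the log2(FPKM + 1) scale, 5 of them in ABA8OX1. Over all tested genes 10.4% of values passed that stricter rule. The libraries of day 1 and day 10 did not overlap in 32 of the 36, against 66.4% of values over all tested genes.

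The day change itself depended on the season in 17 of 18 tests of the difference, against a background of 77.3% of all tested genes in WFB, 57.1% in CHT025 and 70% in WFYT025. For ABA8OX1 the middle-season change minus the early-season change was -4.72 ± 0.17 (WFB), 4.94 ± 0.17 (CHT025) and 1.95 ± 0.17 (WFYT025) in log2 units. ABA8OX3, which rose in the early season and fell in the middle season, had a negative difference in all 3 varieties, -2.36 ± 0.07, -1.24 ± 0.07 and -1.36 ± 0.07 in the same order. NCED3 in WFB had a difference of -0.07 ± 0.14 (adjusted p = 0.675), called at -0.46 after quantile normalization. The NCED3 and NCED4 differences in CHT025 (-0.39 and -0.69) and the NCED3 difference in WFYT025 (0.72) rest on low FPKM and lost their calls with a pseudocount of 0.1 FPKM, at 0.034, -0.055 and 0.47. The NCED3 call in CHT025 was also lost without replicate 1 of its early-season day 10 group (-0.26) or replicate 3 of its middle-season one (-0.31).

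The day change also differed between varieties of one season in 33 of 36 tests, a comparison added after the data were seen, against 51.4% of all values tested. In the early season the ABA8OX1 change of WFYT025 exceeded that of CHT025 by 7.40 ± 0.17 on the log2 scale (adjusted p = 1.49e-24). The hybrid's middle-season change exceeded that of WFB by 7.16 ± 0.17 (adjusted p = 4.97e-25).

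Between seasons, most called differences pointed to higher levels in the middle season. Of 36 member values 32 were called, 25 higher and 7 lower in the middle season, 15 of them at least 2-fold, against 15.7% of values over all tested genes. Libraries of the 2 seasons did not overlap in 32 of 36, against 72% over all tested genes. On day 1, 78.3% of all tested genes were called in WFB, 71.9% in CHT025 and 74.2% in WFYT025, and on day 10 67.8%, 64.2% and 63.9%. The seasons stand in separate deposited tables, FPKM being scaled within each library, and season and batch cannot be told apart.

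NCED3 was higher in the middle season in all 6 comparisons, by 0.37 ± 0.10 in WFB on day 10 up to 1.58 ± 0.10 in WFYT025 on day 10 on the log2 scale. The first of these lost its call after quantile normalization (0.096, adjusted p = 0.415). In WFYT025 on day 10 its libraries had 0.44, 0.61 and 0.72 FPKM in the early and 3.64, 3.60 and 4.01 in the middle season, a 6.36-fold ratio of means. NCED4 was higher in 5 comparisons and lower in WFB on day 10 (-0.83 ± 0.11). NCED5 rose 5.71-fold in mean FPKM in WFB on day 1 (log2 change 2.11 ± 0.08) and was lower in WFB on day 10 (-1.31 ± 0.08). Its day 1 libraries in CHT025 overlapped, at 5.35 ± 0.42 in the early and 5.31 ± 0.47 FPKM in the middle season.

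ABA8OX1 was higher in the middle season in 4 comparisons and lower in 2. In CHT025 on day 1 it was lower, at 4.33, 5.42 and 4.03 FPKM against 68.4, 77.8 and 77.9 (log2 change -3.76 ± 0.12, adjusted p = 3.48e-22), and in WFB on day 10 it was also lower (log2 change -2.28 ± 0.12). In WFYT025 it was higher on both days, by 0.81 ± 0.12 on day 1 and 2.76 ± 0.12 on day 10. ABA8OX3 was higher on day 1 in all 3 varieties, with log2 changes of 2.38 ± 0.05 (WFB), 1.21 ± 0.05 (CHT025) and 1.79 ± 0.05 (WFYT025). LHY was also higher on day 1 of the middle season, at 541, 542 and 844 FPKM in the same order, against 23.7, 123 and 63.2 in the early season. GI was lower on that day, at 155, 218 and 152 FPKM against 562, 381 and 441, and the part of these clock genes was not tested. On day 10 ABA8OX3 was called higher in WFYT025 alone (0.43 ± 0.05), where LHY was lower in the middle season, at 389 against 623 FPKM. Its values of 0.02 in WFB and -0.03 in CHT025 became -0.18 and -0.27 after quantile normalization, both then called. ABA8OX2 was lower in the middle season in WFYT025 on both days and in WFB on day 1, and higher in WFB on day 10 and in CHT025 on day 1. Its change in WFYT025 on day 1 (-0.32) lost its call after quantile normalization (-0.13), while its value in CHT025 on day 10 (-0.04) was then called (-0.30).

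Between the parents, all 6 genes were higher in CHT025 than in early-season WFB on day 1, and 5 of the 6 were lower in CHT025 on day 10. ABA8OX1 had 74.7 ± 5.42 FPKM in CHT025 and 10.05 ± 0.86 in WFB on day 1, and 1.17 ± 0.32 against 36.9 ± 2.45 on day 10. The log2 difference, CHT025 minus WFB, was 2.78 ± 0.12 and then -4.13 ± 0.12 (adjusted p = 4.88e-23). ABA8OX2 was the exception on day 10, higher in CHT025 by 0.69 ± 0.07. The background was 59.3% of all tested genes on day 1 and 64.3% on day 10.

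In the middle season, CHT025 had more NCED3 and NCED4 than WFB on day 1, by 1.197 ± 0.10 and 1.25 ± 0.11, and less NCED5, by -1.22 ± 0.08 on the log2 scale. ABA8OX1 was 12.8-fold lower in mean FPKM in CHT025 (log2 difference -3.43 ± 0.12), and ABA8OX2 was higher, 15.4, 14.96 and 14.8 FPKM against 5.59, 4.40 and 5.72. On day 10, 4 of 6 were called, of which NCED4 (0.36) lost its call without replicate 2 of CHT025 (0.21). Over all tested genes 75.3% were called on day 1 and 57.3% on day 10. In all, 22 of 24 values were called and did not overlap, 12 higher and 10 lower in CHT025, while 67.5% of values over all tested genes did not overlap. At least 2-fold were 9 of them, against 11.7% of all values.

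The hybrid differed from at least one parent for most members. Of 48 values 38 were called, 18 higher and 20 lower in WFYT025, 12 of them at least 2-fold against 6.59% of all values, and 40 did not overlap, against 59.6%. Of these 12, 7 were ABA8OX1. On day 1 of the early season 48.2% of all tested genes were called against WFB and 42.3% against CHT025, with 4 members called in each. On day 10 it was 59.1% and 34.8%, with 6 and 2 members. For the middle season the shares were 60.9% and 73.8% on day 1, with 5 and 6 members, and 55.4% and 56.9% on day 10, with 6 and 5. Comparisons with the 2 parents share the WFYT025 libraries.

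On day 1 of both seasons ABA8OX1 was lower in WFYT025 than in either parent. In the early season it had 0.79 ± 0.15 FPKM against 10.05 ± 0.86 in WFB (log2 difference -2.63 ± 0.12) and 74.7 ± 5.42 in CHT025 (-5.41 ± 0.12, adjusted p = 1.09e-25). In the middle season it had 2.14 ± 0.27 against 58.8 ± 3.97 in WFB (-4.26 ± 0.12) and 4.59 ± 0.73 in CHT025 (-0.83 ± 0.12). NCED3 was below both parents on day 1 of the early season, with log2 differences of -0.64 ± 0.10 from WFB and -0.999 ± 0.10 from CHT025. NCED4 was below both on day 1 of the middle season (-0.56 and -1.82), and ABA8OX3 above both there (0.24 and 0.69).

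On day 10 of the middle season 4 genes stood above both parents. Of these, ABA8OX1 and NCED4 had been below both on day 1, ABA8OX3 had already been above both, and NCED3 had not been called outside both. ABA8OX1 libraries had 59.7, 59.7 and 52.7 FPKM in WFYT025, against 7.31, 5.77 and 7.42 in WFB and 3.65, 4.88 and 3.24 in CHT025 (log2 differences 2.90 ± 0.12 and 3.58 ± 0.12). NCED3 was higher by 0.96 ± 0.10 and 0.81 ± 0.10, NCED4 by 1.22 ± 0.11 and 0.86 ± 0.11, and ABA8OX3 by 0.28 ± 0.05 and 0.97 ± 0.05. ABA8OX2 was below both parents (-0.75 ± 0.07 and -0.78 ± 0.07). NCED5 was above WFB (0.76 ± 0.08) and had a difference of -0.05 ± 0.08 from CHT025 (adjusted p = 0.653), which was 0.017 after quantile normalization.

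On day 10 of the early season no member was called outside both parents, and ABA8OX1 lay between them, at 7.63 ± 0.92 FPKM against 36.9 ± 2.45 in WFB and 1.17 ± 0.32 in CHT025. The 2 weak calls against WFB on that day were NCED3 (-0.25, adjusted p = 0.0314; 0.052 without a filter on low values) and ABA8OX3 (-0.13, adjusted p = 0.0193). Leaving out single libraries ended the NCED3 call in 4 cases (values -0.18 to -0.26, without replicate 2 or 3 of WFB or 1 or 2 of WFYT025) and the ABA8OX3 call in 2 (-0.11 and -0.12, without replicate 1 of WFB or 2 of WFYT025). The ABA8OX2 call against WFB on day 1 (0.22, adjusted p = 0.0156) was likewise lost without replicate 1 (0.17) or 3 (0.20) of WFB or replicate 3 of WFYT025 (0.19). Over all tested genes, 12.2% were called outside both parents on day 1 and 9.99% on day 10 of the early season, and 29.3% and 26.7% in the middle season, against 2, 0, 3 and 5 of the 6 members.

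Set against the mid-parent, which is the average of the parents in log2(FPKM + 1), ABA8OX1 in WFYT025 was lower on day 1, with log2 differences of -4.02 ± 0.10 (early season) and -2.54 ± 0.10 (middle season), and higher on day 10 of the middle season by 3.24 ± 0.10. Its value of -0.07 ± 0.10 on day 10 of the early season (adjusted p = 0.623) changed sign with a pseudocount of 0.1 FPKM (0.18). NCED3 had -0.82 ± 0.09 and -0.81 ± 0.09 on day 1 of the 2 seasons and 0.89 ± 0.09 on day 10 of the middle season. ABA8OX3 was above the mid-parent in all 4 comparisons, by 0.18 to 0.62. In all, 21 of 24 values were called, and the background was 39.8% and 41.4% on days 1 and 10 of the early season against 64.5% and 54.7% in the middle season.

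**Figure D3:**
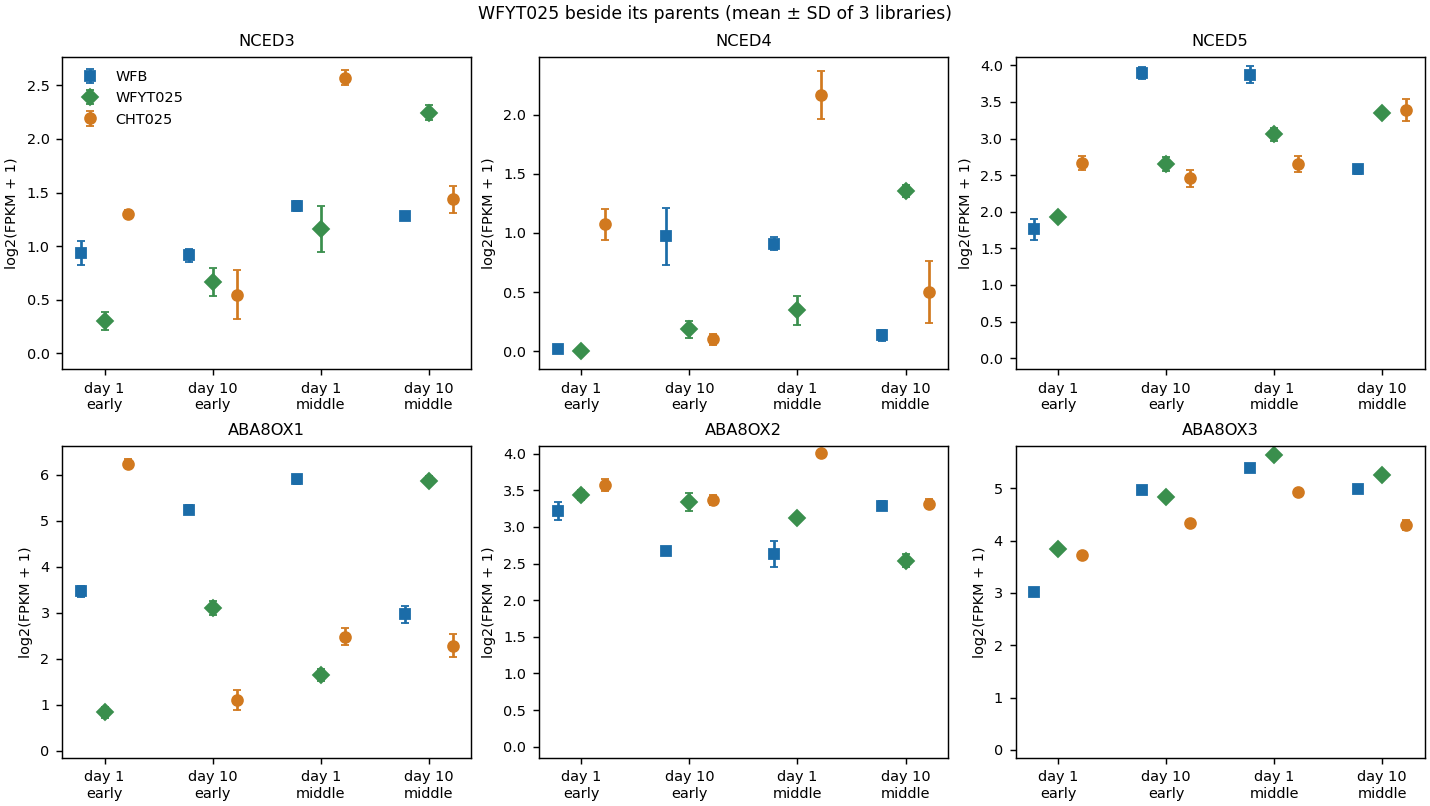
WFYT025 (green diamonds) beside WFB (blue squares) and CHT025 (orange circles) at each day and season, as mean ± SD of log2(FPKM + 1) over 3 libraries. ABA8OX1 in WFYT025 lies below both parents on day 1 of both seasons, at 0.79 and 2.14 FPKM, and above both on day 10 of the middle season, at 57.4 FPKM.

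Summed over the 3 genes of each family, FPKM being per length, the ABA8OX1 to ABA8OX3 sum exceeded the NCED3 to NCED5 sum in all 36 libraries. This order holds for these 3 NCED genes alone: with the far more abundant NCED gene LOC_Os02g47510 added, the NCED sum was the higher one in all 36. The ratio of the 3-gene sums ran from 2.57 in a day 10 library of middle-season CHT025 to 12.6 in a day 1 library of early-season CHT025, and with LOC_Os02g47510 in the NCED sum it lay between 0.0198 and 0.120. The ABA8OX sum was 97.9 ± 5.56 FPKM in CHT025 on day 1 and 29.6 ± 0.39 on day 10 of the early season. ABA8OX1 made up 76.3% of the first and 3.97% of the second. In WFYT025 of the middle season the sum rose from 58.4 ± 2.20 to 99.6 ± 4.19 FPKM, and the share of ABA8OX1 went from 3.65% to 57.5% while that of ABA8OX3 went from 83.2% to 37.6%. The NCED3 to NCED5 sum went from 3.33 ± 0.46 to 15.7 ± 0.64 FPKM in early-season WFB, with NCED5 at 72.0% and 88.1% of it. In middle-season CHT025 on day 1 the 3 synthesis genes were closest to even, at 36.1% NCED3, 25.4% NCED4 and 38.5% NCED5. These sums were not tested.

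**Figure D4:**
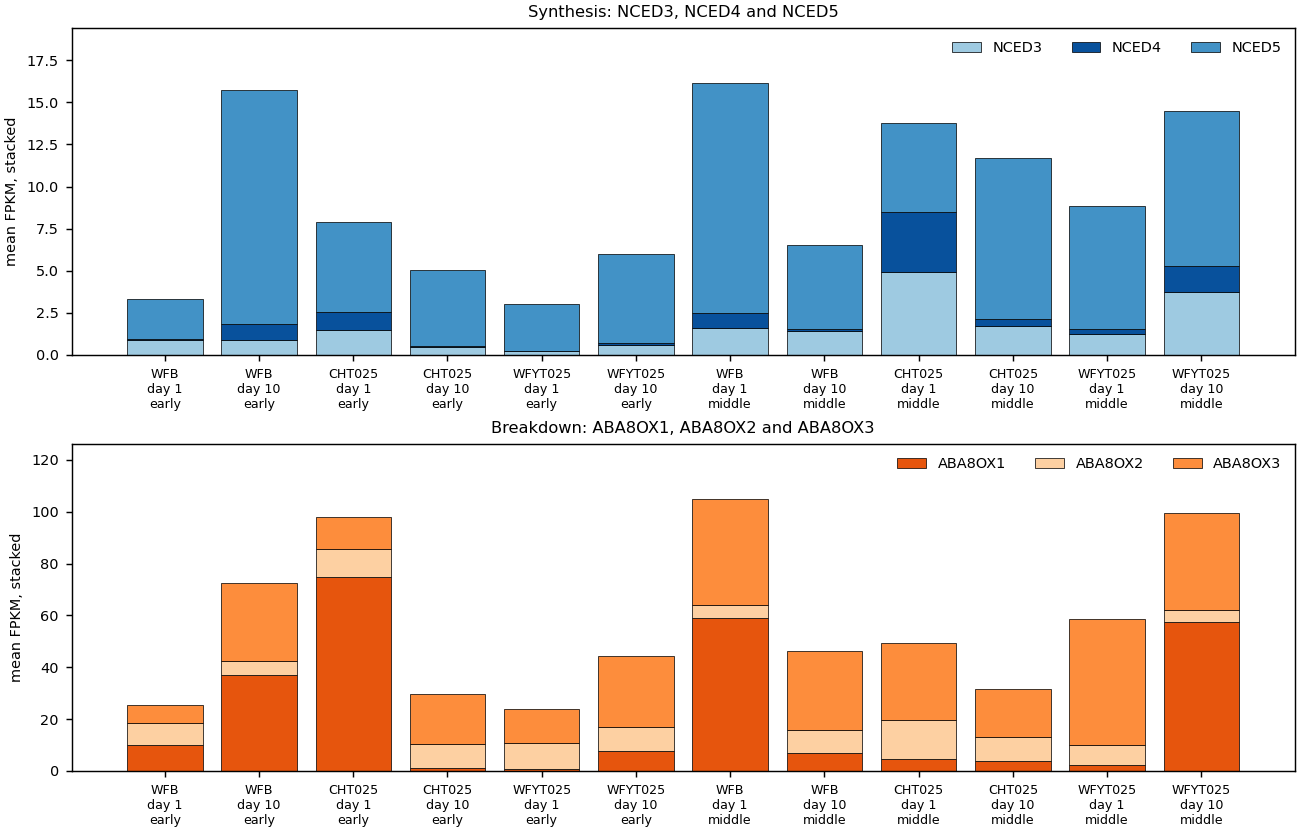
Mean FPKM (3 libraries) of NCED3 to NCED5 above and ABA8OX1 to ABA8OX3 below, stacked by gene for each of the 12 groups, with both axes starting at 0 and without the abundant LOC_Os02g47510. The 4 tallest breakdown bars with a large ABA8OX1 share are CHT025 on day 1 of the early season, WFB on day 10 of the early and day 1 of the middle season, and WFYT025 on day 10 of the middle season.

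Across the 12 group means of log2(FPKM + 1), which share libraries within a group and varieties between groups, NCED3 and NCED4 varied together (Pearson r = 0.85). NCED5 varied with ABA8OX3 (0.70) and against ABA8OX2 (-0.63), and ABA8OX1 against ABA8OX2 (-0.53). ABA8OX1 and ABA8OX3 had an r of 0.14. These are descriptions over 12 points.

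By the same measure over all tested genes, the 3 most similar patterns were named for each member. For ABA8OX1 they were LOC_Os01g58310 (r = 0.96, annotated only as an expressed protein), LOC_Os01g41420 (0.96, a transmembrane amino acid transporter with group means from 0.10 to 21.6 FPKM) and LOC_Os02g41510 (0.96, a MYB factor). ABA8OX3 was followed by LOC_Os09g07660 (0.98, an ELMO/CED-12 family gene), LOC_Os09g31502 (0.96, a dehydrogenase) and LOC_Os06g08360 (0.95, an ethylene-responsive element-binding protein). ABA8OX2 was closest to LOC_Os09g36860 (0.91, an acyl carrier protein), LOC_Os06g33200 (0.91, an expressed protein) and LOC_Os03g27290 (0.89, a cytochrome c oxidase subunit). NCED5 was closest to LOC_Os04g49110 (0.91, a GRAS domain gene), LOC_Os06g49750 (0.91, a kelch motif gene) and LOC_Os05g39410 (0.90, an expressed protein). The list for NCED3 held LOC_Os02g48184 (0.93) and LOC_Os08g32310 (0.90), both expressed proteins, and LOC_Os03g16170 (0.90), a protein phosphatase 2C that also stands in the list of hormone response genes. For NCED4 it held LOC_Os06g49470 (0.93, a peptidyl-prolyl isomerase) and the expressed proteins LOC_Os01g03750 (0.91) and LOC_Os02g48184 (0.89). LOC_Os01g03750 had been listed among the other pathway genes, under xanthophyll epoxidation and neoxanthin, but was not counted because its annotation did not match.

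Other genes of the pathway were listed in 9 classes, of which 55 genes had a matching annotation and 45 were tested. One other NCED gene, LOC_Os02g47510, was far more abundant than the 6 members, with group means from 758 to 1972 FPKM. It rose in WFB in both seasons, by 0.66 ± 0.05 and 0.95 ± 0.05 on the log2 scale, and fell in CHT025 in the early season (-0.47 ± 0.05). Smaller rises were called in WFYT025 in the early (0.22) and the middle season (0.14), and in middle-season CHT025 (0.13). The remaining one, LOC_Os12g24800, was at most 0.14 FPKM in any library and was not tested. How reads shared by similar NCED genes were assigned is not given in the sources used here, so a small exchange between them cannot be told apart from expression.

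Over the 45 tested genes, 19 were higher and 15 lower on day 10 in early-season WFB, 14 and 15 in CHT025, and 23 and 11 in the hybrid, where 71.1%, 65% and 68% of all tested genes were called. The middle-season counts, in the same order of varieties, were 18 and 20, 8 and 24, and 19 and 16, against 66.6%, 43.6% and 64.3% of all genes. These totals are described beside that background and are not read as a property of the list. Among the carotenoid precursor genes, the phytoene synthase LOC_Os12g43130, the entry step of carotenoid synthesis, had 14.9 ± 0.15 FPKM on day 1 and 194 ± 3.59 on day 10 in early-season WFB (log2 change 3.61 ± 0.03) and fell in WFB in the middle season (-0.57 ± 0.03), while its middle-season change in CHT025 was 0.079 (adjusted p = 0.0488). Of the 10 precursor genes, 8 fell in middle-season WFB and none rose, where 66.6% of all tested genes were called in either direction, with a median log2 change of -0.52 against 0.16 over all genes. In middle-season CHT025 7 fell and 1 rose, where 43.6% of all genes were called, with a median of -0.22 against 0.01. In the middle-season hybrid 7 fell and 3 rose, where 64.3% were called, with a median of -0.36 against 0.18. In the early season 5 of the 10 rose and 2 fell in WFB, 3 rose and 2 fell in CHT025, and 4 rose and 4 fell in the hybrid. LOC_Os04g48880, annotated as a hydroxylase of the fatty acid hydroxylase family, changed by 2.93 in early-season WFB and by -1.13 in middle-season WFB. Zeaxanthin epoxidase (LOC_Os04g37619) was called in all 6 comparisons, with changes between -0.36 and 0.35. It rose in early-season WFB (0.35) and middle-season WFYT025 (0.31) and fell in the others. Violaxanthin de-epoxidase (LOC_Os04g31040) was called in early-season WFB alone (-0.94 ± 0.33).

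Of the steps after cleavage, the aldehyde oxidase LOC_Os07g07050 rose in WFB in both seasons (0.81 and 0.53). In CHT025 it fell in both (-0.20 and -0.18), and in WFYT025 it was called in the early season alone (0.35). The short-chain dehydrogenase LOC_Os03g59610 had group means of at most 3.35 FPKM. Among the PYL receptors, which bind the hormone, LOC_Os10g42280 rose in 5 of 6 comparisons, by up to 1.23 ± 0.10 in early-season CHT025, and LOC_Os03g18600 changed by -1.17 ± 0.08 in early-season WFB and by 0.85 ± 0.08 in middle-season CHT025.

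Clade A protein phosphatases 2C, negative regulators of the hormone's signal whose transcripts it is known to raise in plants, were mostly lower on day 10 in middle-season CHT025. There 7 of 8 fell and none rose, where 43.6% of all tested genes were called in either direction, with a median log2 change of -1.27 against 0.01 over all genes. LOC_Os09g15670 went from 18.4 ± 1.86 to 7.59 FPKM in that comparison (-1.19 ± 0.13) and rose in middle-season WFYT025 (1.34 ± 0.13) and in early-season WFB (2.11 ± 0.13). LOC_Os01g46760 fell in 5 of 6 comparisons, with its largest log2 change, -2.21 ± 0.11, in middle-season WFB. On day 1, 7 of 8 phosphatases were higher in CHT025 in the middle than in the early season, where 71.9% of all genes were called in either direction, with a median of 1.503 against 0.06 over all genes. NCED3 and NCED4 had their highest levels in that same group, CHT025 on day 1 of the middle season. The far more abundant LOC_Os02g47510 had its lowest group mean there, 758 FPKM, and a link to the phosphatases was not tested.

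The SnRK2 kinases, which the phosphatases hold inactive, included LOC_Os07g42940, listed as SAPK2, with changes in both directions. It fell in early-season CHT025 from 33.4 ± 0.98 to 11.04 FPKM (-1.51 ± 0.07) and in middle-season WFB from 49.9 ± 4.95 to 12.2 (-1.95 ± 0.07), and rose in middle-season WFYT025 from 7.70 ± 1.02 to 30.0 (1.84 ± 0.07). Those are the 3 comparisons in which ABA8OX1 changed most on the log2(FPKM + 1) scale, and a link between them was not tested. By ratio of means the ABA8OX1 change in early-season WFYT025 (9.70-fold) exceeded that in middle-season WFB (8.61-fold). LOC_Os07g42940 also rose in early-season WFB (0.27 ± 0.07) and WFYT025 (0.71 ± 0.07), where ABA8OX1 rose too. It rose in middle-season CHT025 (0.37 ± 0.07), where ABA8OX1 was not called (-0.19 ± 0.12). LOC_Os12g39630, listed as SAPK9, fell in 5 of 6, with its largest log2 change, -1.67 ± 0.18, in early-season WFB. Of the bZIP factors that bind hormone response elements, LOC_Os02g52780 fell in CHT025 in both seasons (-0.86 and -1.05) and in middle-season WFB (-1.22), and rose in middle-season WFYT025 (1.11). LOC_Os09g28310 rose in all 3 varieties of the early season, by up to 1.51 in WFB, and fell in all 3 of the middle season. The dehydrin LOC_Os02g44870 rose in early-season WFYT025 from 1.27 ± 0.30 to 26.5 FPKM (3.60 ± 0.10) and of the middle season from 16.8 ± 0.86 to 46.6 (1.42 ± 0.10), but middle-season CHT025 showed a fall (-1.41 ± 0.10). The dehydrin LOC_Os11g26780 was at 1.80 ± 0.28 FPKM in middle-season CHT025 on day 1 and at most 0.20 in every other group mean.

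**Figure D5:**
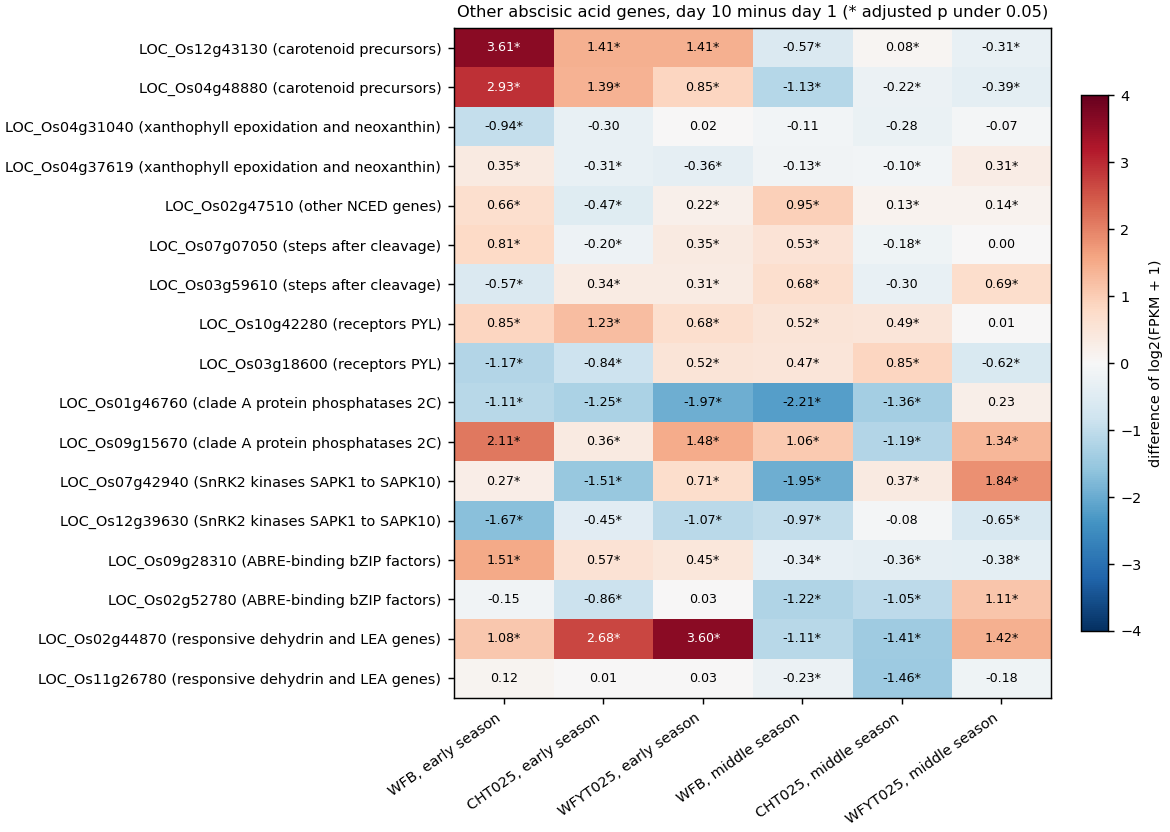
Day 10 minus day 1 difference of log2(FPKM + 1) for the other abscisic acid genes named by a fixed rule, 1 row per gene with its class and 1 column per variety and season, with an asterisk at an adjusted p under 0.05. Red is higher and blue is lower on day 10, and the precursor genes LOC_Os12g43130 and LOC_Os04g48880 are red in all 3 early-season columns.

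The authors' deposited table gives its own test of day 1 against day 10 within each variety and season, and marks 18 of the 36 member comparisons as significant. The log2 ratio of ABA8OX1, day 1 over day 10, is 5.99 for early-season CHT025 and -4.75 for middle-season WFYT025 in the authors' deposited table. For ABA8OX2 the authors' deposited table marks none of the 6 comparisons as significant, with log2 ratios from -0.74 to 0.74, although its q-value is under 0.05 in 4 of the 6.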

How the data were processed

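Flag leaf RNA of 36 libraries was sequenced as paired ends. The authors deposited 6 tables, 1 per variety and season, with FPKM per library per the file headers. The submitters' processing notes name 3 tools, HISAT, StringTie and edgeR, without versions, and no build or annotation. Beside FPKM, the tables hold the authors' fold (ratio) of day 1 over day 10, its log2, and the authors' p-value and q-value per the file headers. The early-season table of WFYT025 has 1 broken and 7534 recurring lines, which were dropped. Depth is unknown, since no read counts were used, so no counting interval is given.

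A gene was tested if 3 or more libraries reached 1 FPKM, which held for 18585 of 34623. The model (limma 3.58.1 in R 4.3.3) had log2(FPKM + 1) as response and 1 mean for each of the 12 groups, all 36 libraries sharing an estimate of the spread with a mean-variance trend. Moderated tests were two-sided, and p-values were adjusted by Benjamini-Hochberg across tested genes. With 24 residual degrees of freedom, the median residual SD was 0.106, so small changes were called. The fit was tested on simulated data. Quantile normalization was an alternative, since the median over all genes differed between groups by up to 0.31 on the log2 scale in size (-0.31, WFYT025 minus CHT025 on day 1 of the middle season).

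The members and lists were chosen with earlier results of these data known. Named were the 6 members, the 3 genes most similar to each over group means, and, in each class of other pathway genes, the 2 with the largest called day change. Of the listed genes, 6 were not counted, because their annotation did not match or the tables did not hold them. Python 3.11.15 with pandas 2.3.3 served for the tables and matplotlib 3.10.9 for figures. Alternatives were a pseudocount of 0.1 FPKM, no filter on low values, quantile normalization, a replicate block, a fit on the compared groups alone, and leaving out each library.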

Additional observations from a re-analysis of the deposited data

Results flagged for a closer look

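The day change, day 10 minus day 1 in log2(FPKM + 1), differed between the seasons for 17 member and variety combinations, each by a test of the difference itself (limma, middle minus early season). In WFB the difference was -1.72 for NCED4, -3.43 for NCED5, -4.72 for ABA8OX1 and -2.36 for ABA8OX3. ABA8OX2 in WFB had a difference of 1.201, the opposite sign. In CHT025 it was 4.94 for ABA8OX1 and 0.94 for NCED5. The other CHT025 values were -0.39 for NCED3, -0.69 for NCED4, -0.47 for ABA8OX2 and -1.24 for ABA8OX3. In WFYT025 NCED3, NCED4 and ABA8OX1 had differences of 0.72, 0.82 and 1.95, and NCED5, ABA8OX2 and ABA8OX3 of -0.43, -0.48 and -1.36. The largest adjusted p among these was 0.0188, for NCED3 in CHT025. The season cannot be told apart from a batch that went with it.

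Day changes called in opposite directions in 2 varieties of one season, with a called difference between them, numbered 14. For CHT025 minus WFB in the early season the differences were -1.92 for NCED4, -2.34 for NCED5 and -6.91 for ABA8OX1. WFYT025 minus CHT025 in the early season gave 1.118 for NCED3, 0.92 for NCED5 and 7.40 for ABA8OX1. In the middle season CHT025 minus WFB gave 2.03 for NCED5 and -1.34 for ABA8OX2. WFYT025 minus WFB gave 1.78 for NCED4, 1.58 for NCED5, 7.16 for ABA8OX1 and -1.23 for ABA8OX2. WFYT025 minus CHT025 gave 2.22 for NCED3 and 2.67 for NCED4. Of the season differences, those of NCED3 and NCED4 in CHT025 and of NCED3 in WFYT025 rest on low FPKM. They lost their calls with a pseudocount of 0.1 FPKM, the first of them at 0.034. The NCED5 differences that rest on CHT025 in the early season or WFYT025 in the middle season use a day change that quantile normalization brought close to 0 (-0.046 and -0.049).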

How the results depend on the processing

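Over 222 member values, 194 were called. A pseudocount of 0.1 FPKM kept 190 calls, no filter on low values 193, quantile normalization 184, and the fit on the compared groups alone 192. Replicate numbers did not pair the libraries: over 198 same-numbered pairs the deviations correlated between -0.38 and 0.35, 26 pairs were over 0.1, and 4 of 36 libraries correlated best with their own number. With the replicate block all 194 calls were kept (day comparisons 31, season 32, hybrid 38, parents 22, season difference 17, mid-parent 21 and variety difference 33 called, as without it). Leaving out single libraries, 1728 values in all, lost 22 calls and added 5, and no called value changed sign. The counts then ran from 30 to 32 (day), 32 to 32 (season), 36 to 40 (hybrid), 21 to 22 (parents), 16 to 17 (season difference), 20 to 21 (mid-parent) and 32 to 33 (variety difference). Signs turned after quantile normalization for NCED3 in WFB (early day change, 0.20), NCED5 in WFYT025 (middle day change, -0.049), ABA8OX3 in WFB (season on day 10, -0.18), NCED5 in WFYT025 against CHT025 (day 10 middle, 0.017), ABA8OX2 in CHT025 against WFB (day 10 middle, -0.0073), NCED5 and ABA8OX2 against the mid-parent (day 1 middle, 0.097 and 0.041), and the variety differences of ABA8OX2 for WFYT025 minus CHT025 (-0.0011 early, -0.14 middle) and of ABA8OX3 for WFYT025 minus WFB (middle, -0.14). With a pseudocount of 0.1 FPKM they turned for the NCED3 season difference in CHT025 (0.034) and ABA8OX1 against the mid-parent (day 10 early, 0.18). The cause was not tested. Leaving out single libraries turned values near 0 that were not called (lowest to highest): NCED3 early day change in WFB (-0.083 to 0.030), NCED5 season in CHT025 on day 1 (-0.048 to 0.053), ABA8OX3 season on day 10 in WFB (-0.0099 to 0.047) and CHT025 (-0.093 to 0.0059), NCED4 in WFYT025 against WFB on day 1 early (-0.028 to 0, the latter without the 1 WFB library above 0), ABA8OX2 against CHT025 on day 10 early (-0.079 to 0.043), NCED5 against CHT025 on day 10 middle (-0.13 to 0.022), ABA8OX2 in CHT025 against WFB on day 10 middle (-0.0019 to 0.066), NCED3 and ABA8OX1 against the mid-parent on day 10 early (-0.12 to 0.0051 and -0.13 to 0.020), and ABA8OX3 for WFYT025 minus WFB in the middle season (-0.0024 to 0.077). NCED4 day change in WFYT025 of the early season, from libraries listed at 0, was called with a pseudocount of 0.1 FPKM (1.24) and by the fit on its own groups (0.19). Without read counts, the precision of NCED3 and NCED4 at these low FPKM cannot be given.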
